A study of Ovis aries with 2 samples.

Results

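The 7 genes described here encode chains of the fibrillar collagens and proteins that bind them: COL1A1, COL1A2, COL3A1, COL5A1, the small leucine-rich proteoglycans LUM and DCN, and the matricellular protein POSTN. They were taken by symbol from the gene list of the deposited tables, where each of the 7 symbols belongs to 1 of the 26478 features. The study compared the embryos of 2 Mongolian sheep breeds at embryonic day 16, the Ujumqin breed with a long fat tail as the control and the Hulunbuir short-tailed breed. Embryos were freed of extraembryonic tissue, digested with enzymes and treated to lyse red blood cells, and the pooled cells of each breed gave 1 droplet library of single cells. The design gives 3 embryos per breed, but no label ties a cell to an embryo, so each breed stands as 1 sample, no difference between breeds can be tested, and breed and library cannot be told apart. Neither group carries an allele or agent beyond its breed, and the ewes of both had their oestrus timed with progesterone and gonadotropin.

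Fibrillar collagens are secreted as triple-helical procollagens, which lose their end propeptides outside the cell and then assemble into fibrils. Type I collagen is built from COL1A1 and COL1A2 chains, type III collagen is the COL3A1 homotrimer common in soft and embryonic tissue, and type V collagen, which holds a COL5A1 chain, starts fibrils and limits their width. Lumican (LUM) and decorin (DCN) coat the fibril surface and control fibril spacing and diameter, and periostin (POSTN) binds collagen and promotes its cross-linking. In embryos these genes are best known from loose mesenchyme, the migratory connective tissue cells between epithelia.

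Levels are unique molecular identifiers (UMIs) of a gene for every 1000000 UMIs of a group of cells (CPM). Kept cells had 200 or more genes and less than 10% of their UMIs from mitochondrial genes. There were 14554 in Ujumqin sheep (209576780 UMIs, median 9519 per cell) and 9583 in Hulunbuir sheep (128654663 UMIs, median 11879). Cell groups are gates: a cell of at least 1000 UMIs entered a gate when it carried at least 3 raised markers of that cell type and of no other, and none of the 7 genes served as a marker. The mesenchyme gate held 760 Ujumqin cells (5.22% of those kept, 95% interval 4.87 to 5.60%) and 2812 Hulunbuir cells (29.3%, interval 28.4 to 30.3%). The kept cells included 4535 erythroid cells and 3345 cells under 1000 UMIs in Ujumqin sheep, against 2 and 516 in Hulunbuir sheep. When a marker counted as raised against the mean of its own library instead of both, the gate held 1113 and 2324 cells. In 387 of the Ujumqin and 1043 of the Hulunbuir gated cells the number of markers was exactly at the limit. All intervals are exact Poisson or binomial intervals and cover counting error only. UMIs are read near the 3' end of a transcript, so levels are compared between cell groups for 1 gene, not between genes. The libraries share 61 barcodes, 0.570% of the Hulunbuir ones.

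The chains of type I and type III collagen were highest in mesenchyme in both libraries. COL1A1 stood at 2060 CPM in Ujumqin mesenchyme (interval 2043 to 2077) and at 671 in Hulunbuir mesenchyme (664 to 678). In epithelium it stood at 78.7 and 40.6. The log2 difference between mesenchyme and epithelium was 4.71 in Ujumqin sheep (interval 4.55 to 4.88) and 4.05 in Hulunbuir sheep (3.85 to 4.25). COL1A2 showed a smaller difference, 3.35 and 2.74 on the log2 scale, from epithelial levels of 126.3 and 66.6 CPM. COL3A1 was 3.22 higher in Ujumqin and 1.90 higher in Hulunbuir mesenchyme than in epithelium on that scale. Of the 3 chains, COL3A1 thus separated the Hulunbuir mesenchyme least from its epithelium.

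COL5A1, the chain of type V collagen, was sparse everywhere. It stood at 19.1 CPM in Ujumqin mesenchyme (17.5 to 20.8, 545 UMIs) and at 7.98 in Hulunbuir mesenchyme (7.23 to 8.79, 414 UMIs). Only 40.4% and 12.5% of the mesenchyme cells had a UMI of it. Mesenchyme was still the first group in both libraries, and the intervals of the groups after it overlapped each other in a chain down to the lowest.

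LUM stood at 2035 CPM in Ujumqin and 668 in Hulunbuir mesenchyme, against 23.0 and 34.4 in epithelium. This is a log2 difference of 6.46 (interval 6.16 to 6.79) in Ujumqin and 4.28 (4.07 to 4.49) in Hulunbuir sheep. DCN stood at 1290 and 499.7 in mesenchyme and at 76.0 and 26.6 in epithelium, log2 differences of 4.08 and 4.23. COL1A1, COL1A2, COL3A1 and LUM had a smaller contrast in Hulunbuir sheep, with intervals that did not overlap, whereas the DCN intervals did. The compared gates differed in depth, with medians of 31003 UMIs in mesenchyme and 5149 in epithelium in Ujumqin sheep. In Hulunbuir sheep these medians were 17713.5 and 11063.5, and the part of depth in the contrast was not tested. The epithelial levels rested on few cells, so the differences were also taken without the 5 cells of most UMIs of a gene in each group, an alternative chosen after the values were seen. They were then 7.84 and 5.43 for LUM, 7.78 and 5.23 for COL1A1 and 7.15 and 5.66 for DCN, with the smaller contrast in Hulunbuir sheep for DCN too. This alternative favours a larger contrast, since in Ujumqin sheep COL1A1 was found in 30 epithelium but 754 mesenchyme cells. The Ujumqin epithelial levels left, 8.84 for LUM, 9.09 for COL1A1 and 8.38 for DCN, were below those of Ujumqin erythroid cells.

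POSTN was not highest in mesenchyme. It stood at 21.2 CPM in Ujumqin mesenchyme (19.5 to 23.0) and at 27.8 in Ujumqin epithelium, and at 14.5 in Hulunbuir mesenchyme (13.4 to 15.5) against 52.2 in Hulunbuir epithelium. The log2 difference was -0.39 (interval -0.69 to -0.08) and -1.85 (-2.05 to -1.65). In each epithelium 5 cells carried most POSTN UMIs, 69.5% in Ujumqin and 69.9% in Hulunbuir sheep. Without the 5 highest cells of each group, mesenchyme and epithelium stood at 15.3 and 9.01 CPM in Ujumqin sheep and at 10.6 and 15.9 in Hulunbuir sheep. The Ujumqin difference thus changed sign, to 0.76, and the Hulunbuir one shrank to -0.59. With the mean of the levels of single cells in place of summed UMIs, the Ujumqin value was 0.87.

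At a 2-fold limit, 6 of the 7 genes were higher in mesenchyme than in epithelium in each library, the exception being POSTN in both, and this count was the same without the 5 highest cells of each gene. Of all genes with at least 20 UMIs in the compared groups together, 20.9% passed this limit in Ujumqin and 11.4% in Hulunbuir sheep. At 8-fold, 6 of the 7 genes passed in Ujumqin sheep, where 2.31% of all genes did, and 3 of the 7 in Hulunbuir sheep (COL1A1, LUM and DCN), where 0.926% did. The median log2 difference of the 7 genes was 3.35 and 2.74, and that of all genes 0.33 and 0.13.

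**Figure D1:**
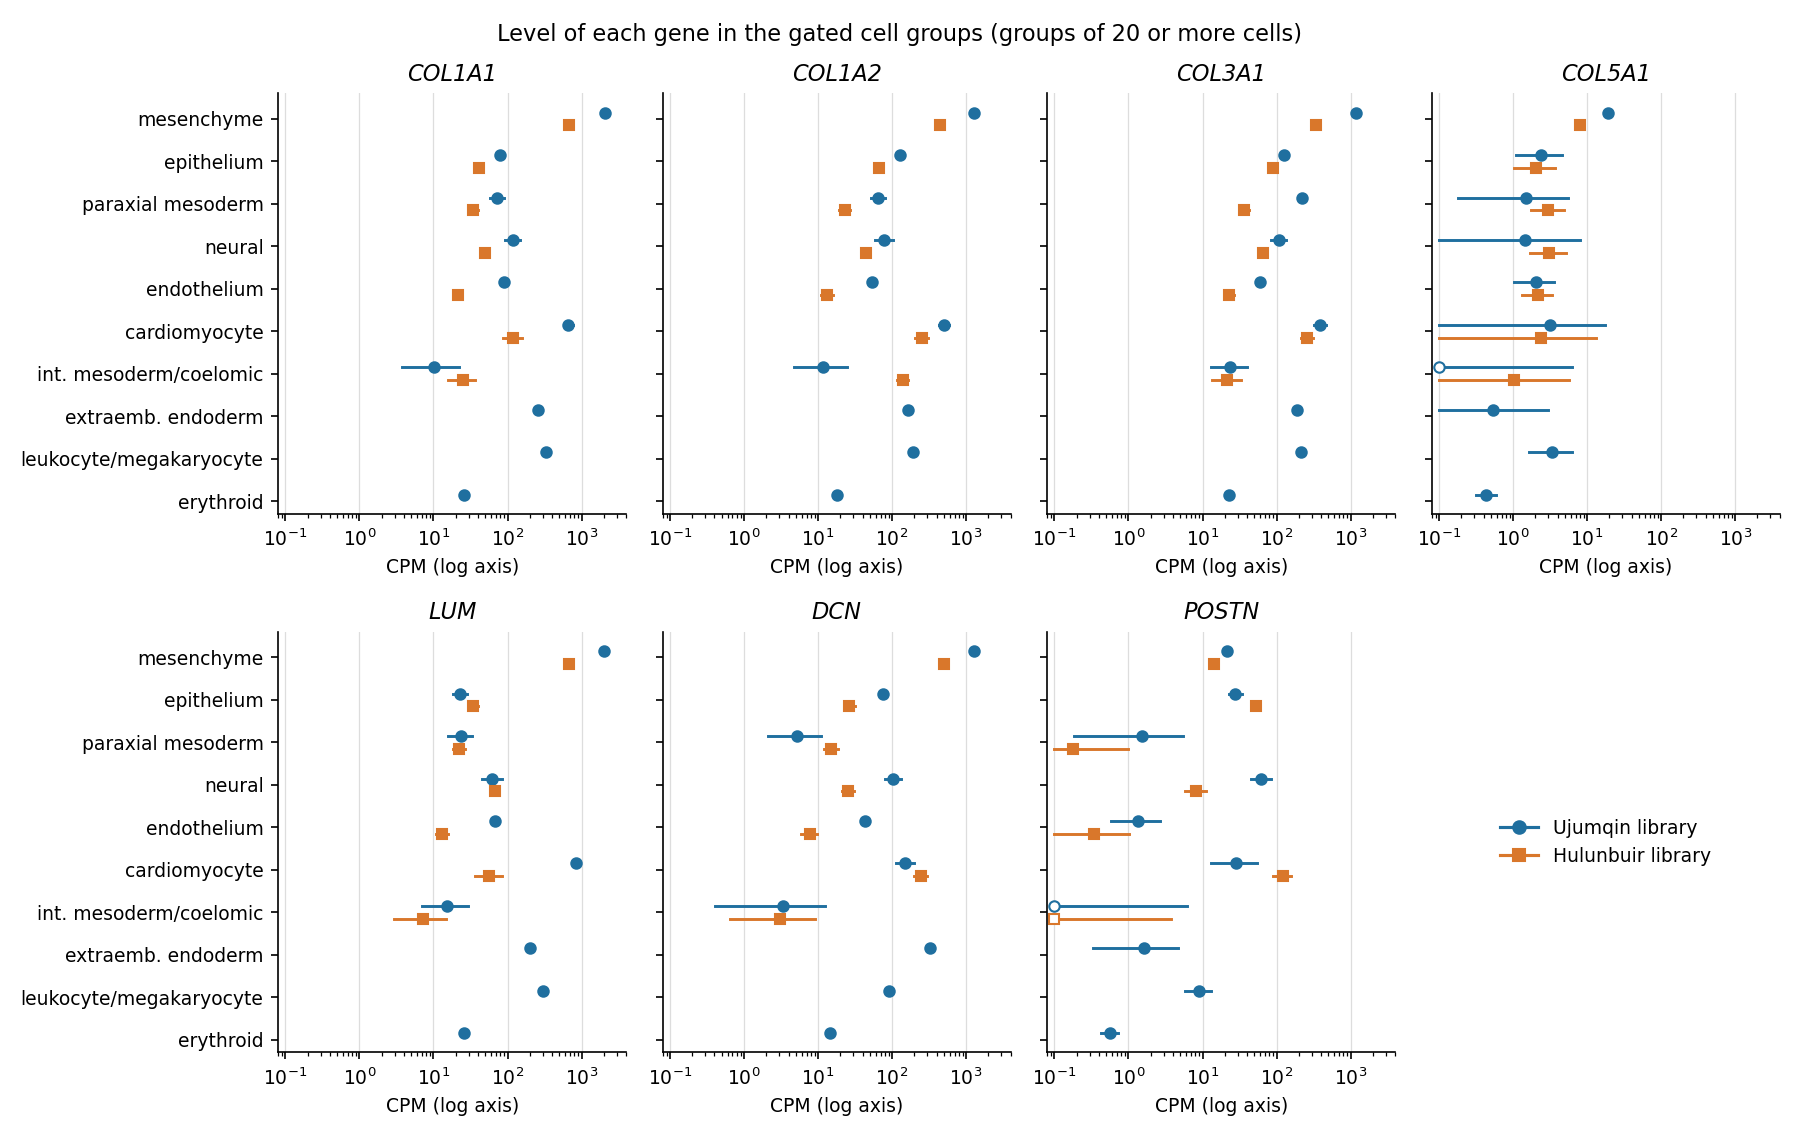
Level of each of the 7 genes (CPM of the group, log axis) in the gated cell groups of at least 20 cells, with circles for the Ujumqin and squares for the Hulunbuir library, and lines for 95% counting intervals. Open symbols at the left edge are groups with 0 UMIs of the gene. Mesenchyme is the highest group for 6 genes in both libraries, while POSTN is above its mesenchyme level in the cardiomyocyte and epithelium gates of the Hulunbuir library, and in the neural gate of the Ujumqin library, beyond the counting intervals.

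The order of the other groups differed between the genes. Behind mesenchyme, the cardiomyocyte gate (41 Ujumqin and 38 Hulunbuir cells) was the second group for COL1A1, COL1A2 and COL3A1 in both libraries, with COL3A1 at 387 and 259.9 CPM. These levels sat in few cells. The 5 cells with the most COL1A1 carried 188 of its 210 UMIs in the Ujumqin cardiomyocyte gate, and 102 of the 103 DCN UMIs in the Hulunbuir one lay in 5 cells. The same held in Ujumqin epithelium, where 5 of 225 cells carried 89.9% of the COL1A1 UMIs and 5 carried 90.2% of the DCN UMIs. Without those cells the levels were 9.09 for COL1A1 and 8.38 for DCN, so the epithelial levels of these genes rested on those cells. In mesenchyme, by contrast, the 5 highest cells carried between 1.24% and 9.61% of the UMIs of each gene other than POSTN.

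Paraxial mesoderm, which gives rise to the somites, was low in most of the 7 genes, with COL3A1 in Ujumqin sheep as the exception. In the 42 Ujumqin cells of this gate, COL3A1 stood at 223 CPM, COL1A1 at 72.4 and DCN at 5.28. A single cell carried 106 of the 296 COL3A1 UMIs there, and 29 of the 42 cells had at least 1. In the 420 Hulunbuir cells the same genes stood at 36.4, 34.5 and 15.2. Without the 5 highest cells of each group, COL3A1 stood at 104 and 23.4, COL1A1 at 17.2 and 13.3. The gate for extraembryonic endoderm, present in number in Ujumqin sheep only (134 cells against 5), held DCN at 328 CPM, the second level of DCN in that library. Of its 608 UMIs there, 579 lay in 5 cells and 278 in 1 cell, and without the 5 cells the level was 18.2. These cells were shallow, with a median of 1622.5 UMIs.

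Erythroid cells, which should lack these genes, were taken as a comparison in Ujumqin sheep. Over 4535 such cells COL1A1 stood at 25.6 CPM, LUM at 25.9, COL3A1 at 22.5, COL1A2 at 18.2 and DCN at 14.5. The LUM levels of Ujumqin epithelium (23.0) and paraxial mesoderm (23.4) were not above the erythroid level. That level was not the lowest of the library for most of these genes. In the 21 Ujumqin cells of intermediate mesoderm and coelomic lining COL1A1 stood at 10.2, LUM at 15.2, COL1A2 at 11.9 and DCN at 3.39. COL3A1 stood at 23.7 there, and each of these levels came from at most 14 UMIs. Hulunbuir sheep had 2 erythroid cells, too few for such a comparison. Its lowest level among groups of at least 20 cells came from the endothelium for COL1A1 (21.2) and COL1A2 (13.2), while for LUM it came from the gate for intermediate mesoderm and coelomic lining (7.22).

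The chains of type I collagen kept nearly the same proportion in mesenchyme of both libraries. For each COL1A1 UMI there were 0.625 COL1A2 UMIs in Ujumqin mesenchyme (interval 0.617 to 0.633) and 0.663 in Hulunbuir mesenchyme (0.652 to 0.675). Endothelium, at 0.607 and 0.622, lay within counting error of mesenchyme, and erythroid cells stood at 0.712. In epithelium the proportion was 1.61 (1.39 to 1.86) and 1.64 (1.38 to 1.95), above mesenchyme in both libraries. Outside mesenchyme these proportions rested on few cells. Without the 5 highest cells of either chain they were 6.13 and 2.26 in epithelium and 1.27 and 0.747 in endothelium, against 0.634 and 0.661 in mesenchyme. With all cells the largest departure was in the 51 Hulunbuir cells of intermediate mesoderm and coelomic lining, with 135 COL1A2 UMIs and 24 COL1A1 UMIs, a proportion of 5.62 (3.63 to 9.08). There COL1A2 was found in 21 of 51 cells and no cell carried more than 19 of its UMIs, while LUM had 7 UMIs and DCN 3. The Ujumqin gate of that name had 21 cells with 7 COL1A2 and 6 COL1A1 UMIs, too few for a proportion to be read.

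**Figure D2:**
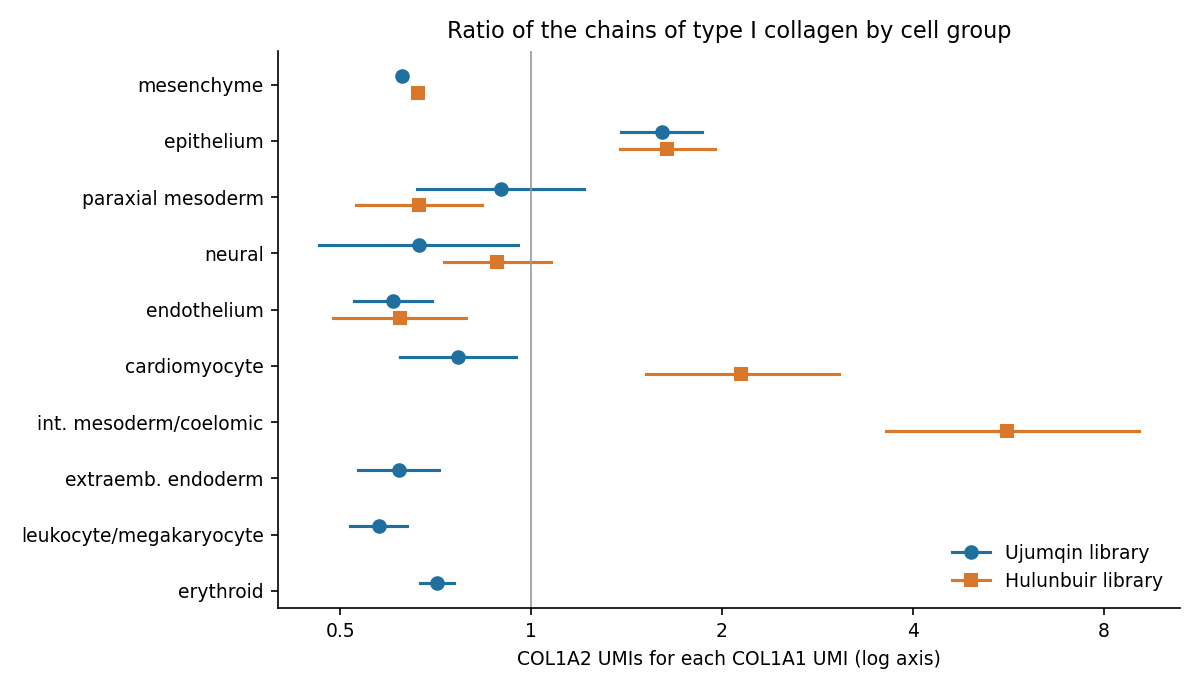
COL1A2 UMIs for each COL1A1 UMI (log axis) in the gated groups with at least 20 UMIs of both genes together, with circles for Ujumqin, squares for Hulunbuir and lines for 95% counting intervals. Mesenchyme and endothelium lie between 0.607 and 0.663 in both libraries, epithelium at 1.61 and 1.64, and Hulunbuir intermediate mesoderm and coelomic lining at 5.62.

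Across the 12 gated groups with at least 50 cells, the level patterns of COL1A1, COL3A1, LUM and DCN were close. Pearson's r of log2 levels (with 5 CPM added) was 0.97 for COL1A1 with LUM, 0.96 with COL3A1 and 0.96 with DCN. These values are descriptive, since groups of 1 library share depth and free RNA, and 2 of the 12 are mesenchyme. Among 4537 genes, the closest to COL1A1 were these 3 members, and the closest to DCN were COL1A1, COL3A1 and LUM. COL3A1 was nearest to COL1A1, DCN and a gene without a symbol (ENSOARG00020012857), and LUM to COL1A1, LRRN3 and DCN. COL1A2 stood nearest to CAMK2D (0.93), DPM3 (0.92) and COL1A1 (0.90). COL5A1 stood nearest to CTHRC1 (0.93), the collagen cross-linking enzyme LOX (0.92) and NRG2 (0.91). POSTN had KRT8 (0.85), FERMT1 (0.85) and PLPP2 (0.85) as its nearest genes, of which KRT8 is a keratin of simple epithelia and a marker of the epithelium gate, and its highest r with another of the 7 genes was 0.61, with COL3A1. In RefSeq's annotation of the assembly ARS-UI_Ramb_v3.0, LUM lies between KERA and DCN, and COL3A1 next to COL5A2.

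In mesenchyme, 6 of the 7 genes were at least 2-fold lower in Hulunbuir than in Ujumqin sheep. Over all genes tested, 4.01% were at least 2-fold lower and 15.6% at least 2-fold higher, 19.6% either way. Among genes of at least 50 CPM in either mesenchyme the lower share was 2.23%, and all 5 of the 7 genes at that level were among them. The log2 difference of Hulunbuir over Ujumqin was -1.81 for COL3A1 (interval -1.83 to -1.78), -1.62 for COL1A1 (-1.64 to -1.60) and -1.61 for LUM (-1.63 to -1.59). For COL1A2 it was -1.53, for DCN -1.37 and for COL5A1 -1.26 (-1.45 to -1.07). POSTN, at -0.55 (-0.71 to -0.40), did not reach 2-fold. The median of the 7 genes was -1.53 and that of all genes tested was 0.28. With 1 library per breed these differences have no replicate check.

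The difference lay across the mesenchyme cells and not in a few of them. Median cell levels of COL1A1 were 1789 CPM in Ujumqin (25th to 75th percentile 1321 to 2344) and 506 in Hulunbuir mesenchyme (171 to 880). The 25th percentile of Ujumqin cells was thus above the 75th percentile of Hulunbuir cells, and the same was true of LUM, 1443 against 933, of COL1A2, 802 against 606, and of COL3A1, 652 against 474. It was not true of DCN, where these percentiles were 316 and 1754 in Ujumqin and 0 and 654 in Hulunbuir sheep. DCN was the most uneven of the abundant genes, without a UMI in 30.5% of Hulunbuir mesenchyme cells against 10.6% for COL3A1.

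After each cell was thinned at random to 1000 UMIs, 80.9% of Ujumqin mesenchyme cells (interval 77.9 to 83.7%) and 39.0% of Hulunbuir mesenchyme cells (37.2 to 40.8%) had a COL1A1 UMI. Unthinned, at median depths of 31003 and 17713.5 UMIs, these shares were 99.2% and 84.5%. For LUM the thinned shares were 79.9% and 39.3%, for COL1A2 66.3% and 27.0%, for COL3A1 63.7% and 26.7% and for DCN 55.0% and 27.5%. In Ujumqin erythroid cells (median depth 21072) the thinned shares of these 5 genes ran from 0.970% to 1.79%. COL5A1 (1.05% and 1.07%) and POSTN (1.45% and 1.24%) were too sparse after thinning for a difference to be detectable. At least 4 of the 7 genes were found in 55.8% of the thinned Ujumqin and 9.60% of the thinned Hulunbuir mesenchyme cells, and none of them in 1.84% and 24.4%.

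**Figure D3:**
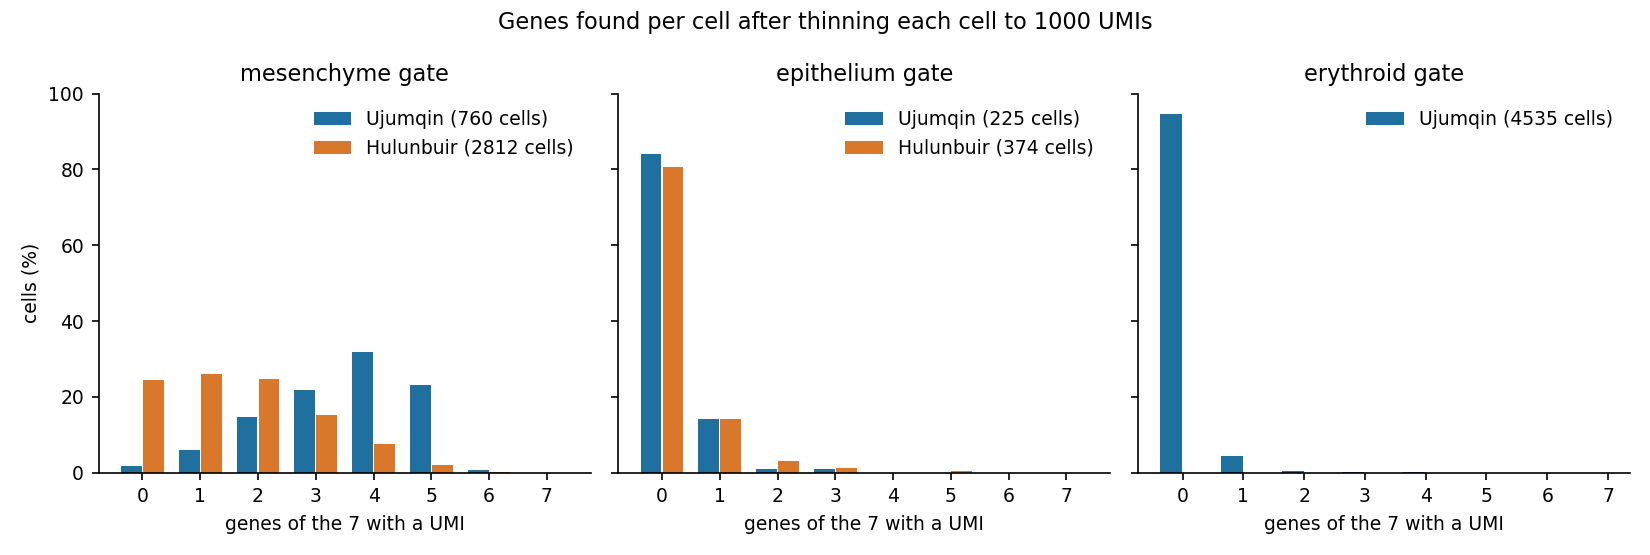
Share of cells (%) by how many of the 7 genes had a UMI after each cell was thinned to 1000 UMIs, in the mesenchyme, epithelium and erythroid gates, with 1 colour per library and groups under 20 cells left out. Ujumqin mesenchyme cells most often had 4 of the genes, Hulunbuir mesenchyme cells most often 1, and most epithelium and erythroid cells none.

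Depth differed between the mesenchyme gates, and some levels moved with it. COL1A1 in Hulunbuir mesenchyme stood at 197 CPM in cells under 5000 UMIs and at 854 in cells of 40000 or more. COL3A1 did not rise there, with 379 and 292 in the same cells, and DCN fell from 589 in cells of 10000 to 20000 UMIs to 365 in the deepest. In Ujumqin mesenchyme both genes rose between these 2 bands, COL3A1 from 989 to 1270 and DCN from 1134 to 1431. The 5 abundant genes were lower in Hulunbuir sheep within each of 3 bands of depth, although Ujumqin cells were still somewhat deeper in each, with medians of 17728.5 against 15784 UMIs, 27663.5 against 24226 and 55552 against 45824. In cells of 10000 to 20000 UMIs (92 Ujumqin and 1202 Hulunbuir) COL1A1 was at 1611 and 589, in cells of 20000 to 40000 (418 and 995) at 1755 and 750, and in cells of 40000 or more (233 and 83) at 2360 and 854. In the lowest of these 3 bands the log2 differences ran from -0.95 for DCN to -1.66 for LUM among the 5 abundant genes. POSTN ran from -0.02 in the deepest cells to -1.62 in the middle band.

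Most markers of the gate itself were higher in Hulunbuir sheep. These markers put the cells in the gate, so their levels are not independent of the choice of cells. Over all genes tested the median log2 difference was 0.28, and 15.6% were at least 2-fold higher in Hulunbuir mesenchyme. The 16 mesenchyme markers summed to 275 CPM in Ujumqin and 424 in Hulunbuir mesenchyme. Of the 14 with at least 20 UMIs, 13 were higher in Hulunbuir sheep, 11 of them with an interval above 0. Among these, PRRX1 was higher by 2.28, BMP4 by 1.48 and TWIST1 by 1.32 on the log2 scale, while TCF21 differed by -0.88. Epithelium markers summed to 3513 and 7506 in the same cells, most of it keratin, with CDH1 and FOXA2 at 0 in both. In the epithelium gate itself they summed to 7403 and 11991, so the 2 gates were only partly separated by the sum of these markers. Extraembryonic endoderm markers summed to 870.5 and 218 in the mesenchyme gate. The part of these markers in the results was not tested.

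Allantois, the outgrowth whose mesoderm forms the umbilical vessels, and limb and body wall contribute different mesenchyme, so the gate was divided by at least 2 of 6 markers of each. The allantois list was TBX4, HAND1, HOXA13, HOXA11, HOXD13 and PITX1. The limb and body-wall list was PRRX1, PRRX2, TWIST1, TWIST2, TBX5 and MEOX1. The sub-gates carry the names of these lists, and whether the lists separate the tissues was not tested. The allantois sub-gate held 198 Ujumqin and 1024 Hulunbuir cells, the limb and body-wall sub-gate 67 and 379, while 14 and 443 cells met both and 481 and 966 met neither. COL1A1 stood at 2159 against 755 CPM in the allantois sub-gate and at 1658 against 587 in the limb and body-wall sub-gate. The type I chains, COL3A1 and LUM were at least 2-fold lower in Hulunbuir sheep in both sub-gates, with log2 differences between -1.27 and -1.81. DCN differed by -1.36 in allantois but by -0.60 (-0.68 to -0.52) in limb and body wall. COL5A1 differed by -1.55 in allantois (-1.87 to -1.24) and by 0.16 in limb and body wall, where 17 and 64 UMIs leave an interval of -0.63 to 1.02.

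POSTN was the gene that separated the sub-gates. In Hulunbuir sheep it stood at 61.4 CPM in limb and body-wall cells and at 2.65 in allantois cells, a log2 difference of 4.54 (4.13 to 4.97). Ujumqin levels were 28.1 and 11.4, a log2 difference of 1.30 (0.78 to 1.81). No other of the 7 genes differed by 2-fold between the sub-gates within a library except COL5A1 in Ujumqin sheep, at -1.26 (-2.07 to -0.54). The libraries thus differed in POSTN by -2.11 in allantois cells and by 1.13 in limb and body-wall cells, and the value for the whole gate was -0.55. In limb and body-wall cells 5 cells carried 51.0% of the Ujumqin and 52.1% of the Hulunbuir POSTN UMIs. Without the 5 highest cells of each sub-gate, POSTN stood at 6.07 CPM in Ujumqin and 1.96 in Hulunbuir allantois cells. In limb and body-wall cells it then stood at 15.2 and 29.9, which fell short of 2-fold. In the cells that met both, POSTN stood at 80.3 CPM in Ujumqin and 5.10 in Hulunbuir sheep, a log2 difference of -3.98 (-4.61 to -3.34). That Ujumqin level came from 14 cells, of which 5 carried 40 of the 44 UMIs.

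**Figure D4:**
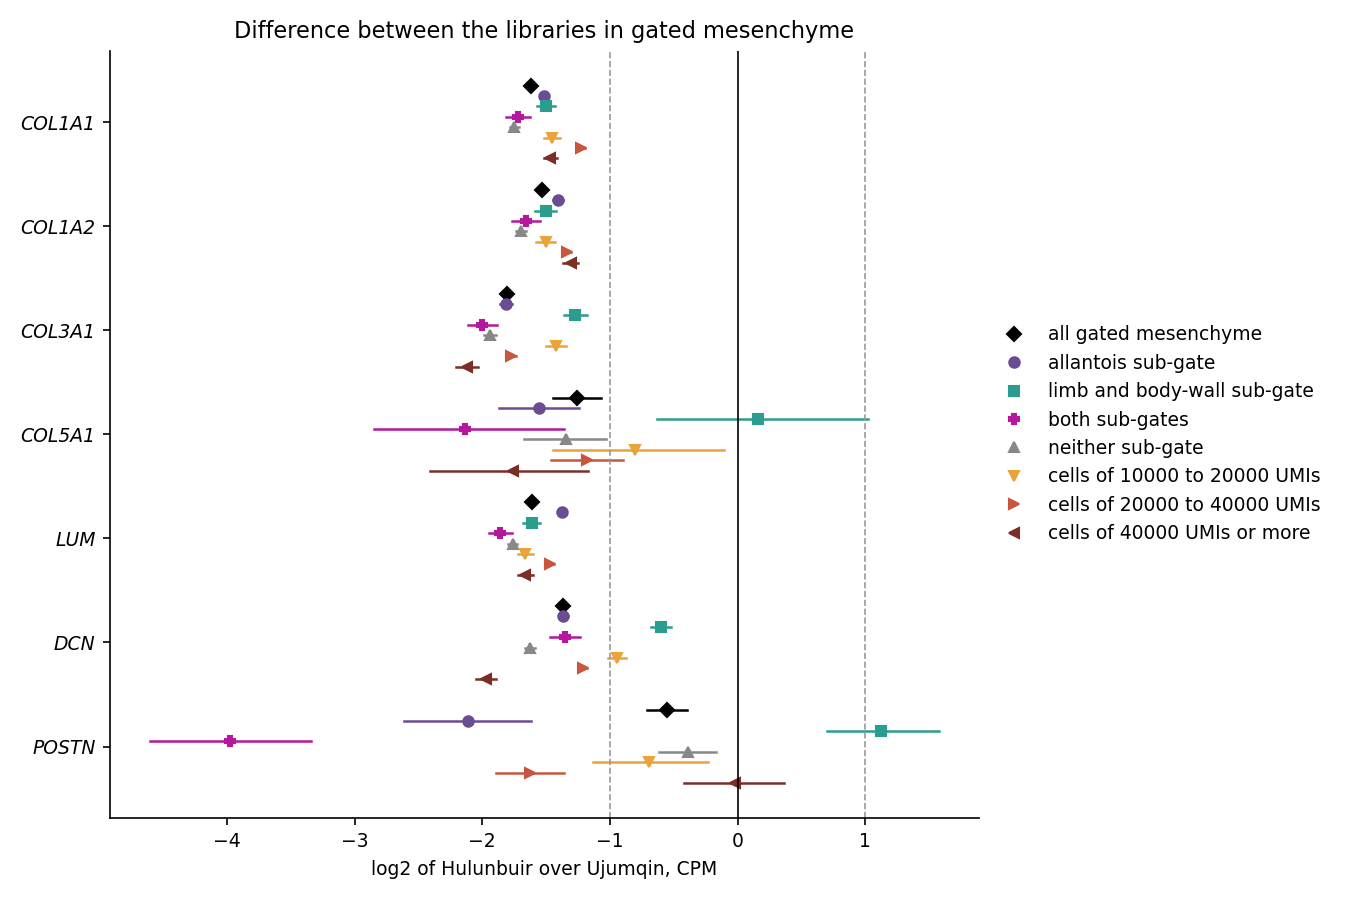
Log2 of Hulunbuir over Ujumqin levels of each gene in gated mesenchyme, in its sub-gates and in bands of cell depth, with lines for 95% counting intervals and dashed lines at 2-fold. COL1A1, COL1A2, COL3A1 and LUM lie past 2-fold lower in every set shown, while POSTN runs from -3.98 in the cells that met both sub-gates to 1.13 in the limb and body-wall sub-gate.

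Most POSTN UMIs of the Hulunbuir library were carried by few cells, those of the Ujumqin library less so. Cells with at least 3 POSTN UMIs and at least 500 CPM numbered 94 in Hulunbuir sheep, where they carried 73.0% of all POSTN UMIs, and 22 in Ujumqin sheep, where they carried 23.1%. Of the 94, 29 were in the mesenchyme gate, 11 in epithelium, 3 in cardiomyocyte, 2 in neural, 14 in several gates, 34 in none and 1 under 1000 UMIs. In the Hulunbuir epithelium 5 of 374 cells carried 69.9% of the POSTN UMIs, 1 of them 105 UMIs, and without these 5 cells the level fell from 52.2 to 15.9. All 51 POSTN UMIs of the Hulunbuir cardiomyocyte gate lay in 4 cells, and all 43 of the Ujumqin neural gate in 5. The 94 Hulunbuir cells held COL1A2 at 699.9 and COL3A1 at 665 CPM, against 277 and 219 in the other kept cells of that library. The 22 Ujumqin cells held COL1A2 at 2297 and COL3A1 at 1699, against 384 and 361. LUM was at 197 against 408 in Hulunbuir but at 1392 against 620 in Ujumqin sheep, and COL1A1 at 414 against 404 and at 2777 against 609, so these genes differed between the libraries in this respect.

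The 94 and the 22 cells were chosen on POSTN after its values were seen, so their other genes are a description. Of the 16 genes of largest ratio over the remaining cells, 7 appeared in both libraries: POSTN itself, PTN, SPP1, IGFBP3, WNT2, CCDC68 and SVEP1. PTN, the growth factor pleiotrophin, had a UMI in 92 of the 94 cells and in 22 of the 22. IGFBP3, a binding protein for insulin-like growth factors, was found in 67 of the 94 and WNT2 in 69. SPP1, which encodes osteopontin, was at 1143 CPM in the 94 cells but in only 15 of them. In Ujumqin sheep 3 of the 22 cells had it, and 1 cell carried 69 of its 72 UMIs. TNNI1, a marker of the cardiomyocyte gate, was found in 60 of the 94.

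In the endothelium, epithelium and neural gates many of the differences between the libraries rested on few cells. In endothelium 5 of the 6 genes with at least 20 UMIs were at least 2-fold lower in Hulunbuir sheep, where 3.65% of all genes were lower and 20.2% higher, with COL1A1 at 89.3 against 21.2. In the 124 Ujumqin cells of that gate 5 carried 75.2% of the COL1A1 and 86.9% of the DCN UMIs. Without the 5 highest cells of each group, 3 of the 6 genes were 2-fold lower, COL1A1 at -1.17, COL1A2 at -1.72 and LUM at -1.59, while DCN was at -0.52 and COL3A1 at -0.41. The erythroid level of COL1A1 in Ujumqin sheep was 25.6, and the part of free RNA in this difference was not tested. In epithelium DCN alone was 2-fold lower, by -1.52, where 2.28% of all genes were, and without the 5 highest cells its difference was 0.22. The remaining collagens and LUM differed there by -0.95 to 0.58 with all cells. In the neural gate COL1A1, DCN and POSTN were 2-fold lower, where 3.06% of all genes were. Of their UMIs in the 48 Ujumqin neural cells, 87.7%, 93.1% and 100% lay in 5 cells. Without the 5 highest cells of each group no gene was 2-fold lower in that gate, COL1A1 was at 0.48 and DCN at -0.08, and POSTN was at 0 in Ujumqin sheep and at 1.12 CPM in Hulunbuir sheep. COL3A1, at 1.27, and LUM, at 1.03, were then at least 2-fold higher in Hulunbuir sheep. With all cells 15.1% of all genes were 2-fold higher in that gate. In mesenchyme, by contrast, the differences without those cells ran from -1.80 for COL3A1 to -0.53 for POSTN, with the same 6 genes 2-fold lower. Some differences in the remaining gates also held without the 5 highest cells. The cardiomyocyte gate kept COL1A1 at -2.25, LUM at -3.70 and COL1A2 at -1.14, while COL3A1 was at -0.07 and DCN turned from 0.69 to -2.06. In paraxial mesoderm COL3A1 stayed at -2.15, with COL1A1 at -0.37, LUM at -0.47 and COL1A2 at 0.65. COL1A2 went from 3.55 to 5.06 in intermediate mesoderm and coelomic lining, where few Ujumqin UMIs remained. Cells that passed no gate (4766 and 4336) held 46.6% to 48.9% of the Ujumqin UMIs of each of the 5 abundant genes, and the mesenchyme gate 43.9% to 45.8%. In Hulunbuir sheep these shares were 28.9% to 30.5% and 60.4% to 67.0%. These ungated cells differed in the same direction as the gated mesenchyme, by -1.70 for COL1A1, -1.73 for COL3A1 and -1.68 for LUM, with 3.89% of all genes at least 2-fold lower. They are a mixture of undefined makeup, with median depths of 3374.5 UMIs in Ujumqin and 8981 in Hulunbuir sheep. After thinning, 24.1% and 16.5% of them had a COL1A1 UMI. The part of makeup in these differences was not tested.

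The genes that act on collagen varied by role. Of 108 genes in lists of matrix roles, 76 could be compared, of which 14 were at least 2-fold lower and 7 at least 2-fold higher in Hulunbuir sheep, with a median of -0.33, where 4.01% and 15.6% of all genes were. The 3 cross-linking genes compared had a median of -0.95, with LOXL1 at -1.26 and LOX at -0.95. Of the 5 genes for propeptide removal 2 were at least 2-fold lower, ADAMTS2 at -1.53 and PCOLCE2 at -1.47. Among the 19 genes for folding and modifying the chains, 17 lay within 2-fold, with a median of -0.16. PPIB, a prolyl isomerase of the collagen folding complex, was at 2570 CPM in Ujumqin and 2304 in Hulunbuir mesenchyme. SERPINH1, the collagen chaperone HSP47, was at 250.3 and 223. The prolyl hydroxylase subunits P4HA1 (219.8 and 173) and P4HA2 (346 and 379.7), P3H4 (218 and 149) and FKBP11 (840.1 and 650.5) were also within 2-fold. Of the 19, 15 were at least 2-fold higher in mesenchyme than in epithelium in Ujumqin and 14 in Hulunbuir sheep, 13 of them in both, where 20.9% and 11.4% of all genes were. P4HA1 was higher by 2.92 and 2.13 on the log2 scale, whereas PPIB, at 0.92 and 0.53, did not reach 2-fold.

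Other collagens and their processing genes were divided. COL5A2, the partner chain of COL5A1, was lower by -1.11 on the log2 scale (147 against 67.8 CPM) and COL12A1, which lies on fibril surfaces, by -1.01 (116 against 57.4). PCOLCE, which enhances removal of the procollagen propeptide, was at 463 and 430.5. The basement membrane list, set beside the fibrillar genes as a contrast, had 11 of 12 genes within 2-fold, among them COL4A1 (569.7 and 399) and COL18A1 (209 and 144), with COL15A1 the exception. Of all genes tested 19.6% differed by 2-fold either way. The median of this list was -0.44, against -0.33 over all matrix lists and 0.28 over all genes tested, so it was also shifted down. TIMP1, an inhibitor of matrix proteases, was at 533 and 364, the proteoglycan VCAN at 256 and 164, FBLN1 at 322 and 302, and the collagen receptor subunit ITGB1 at 179 and 203, all within 2-fold. Outside the naming rule and singled out after its value was seen, the cartilage collagen COL2A1 was the most raised matrix gene in Hulunbuir mesenchyme, at 27.7 against 2.10 (log2 3.72, interval 3.35 to 4.12). Of the 9 other small leucine-rich proteoglycans, 8 had under 20 UMIs in both mesenchyme gates together, and the remaining gene, BGN, was at 1.93 and 0.578.

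**Figure D5:**
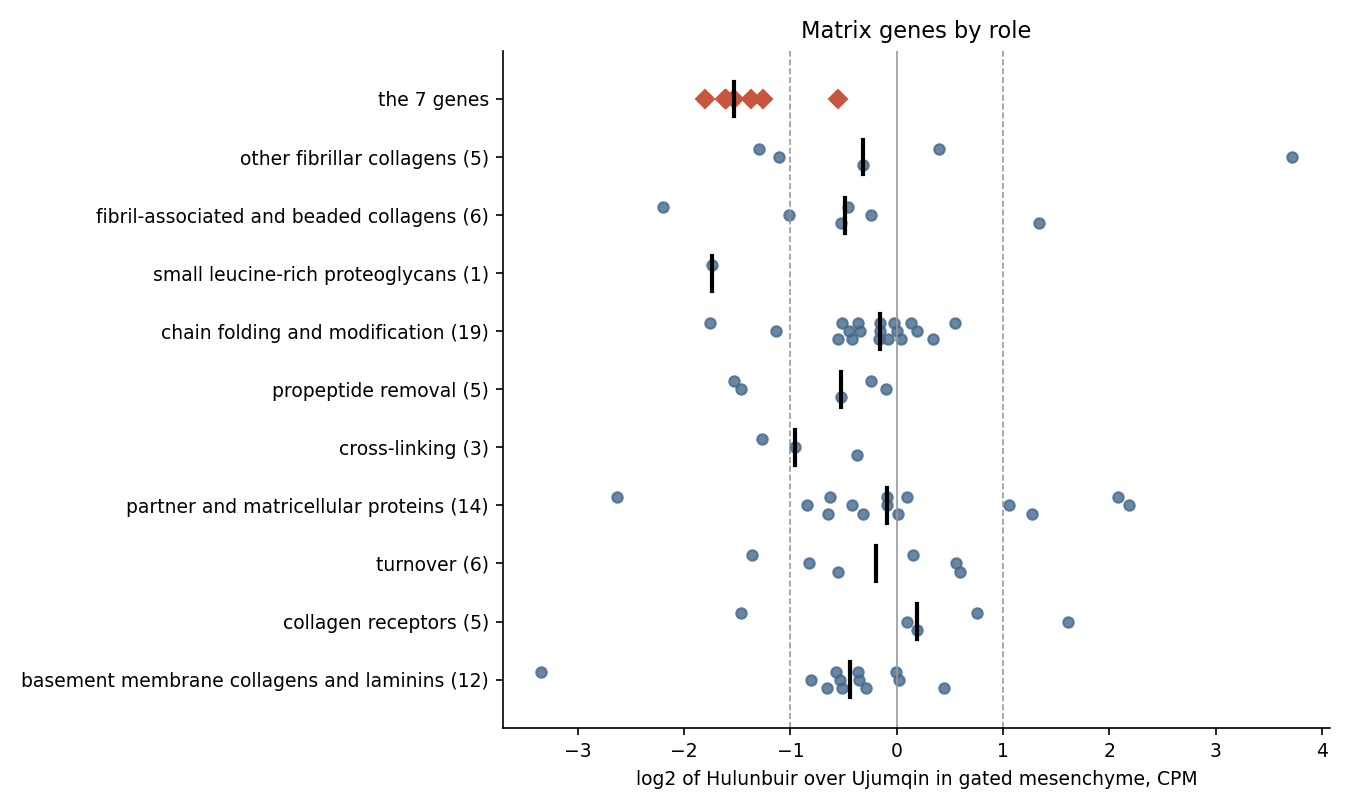
Log2 of Hulunbuir over Ujumqin levels in gated mesenchyme for the 7 genes (diamonds) and for 76 other matrix genes by role (circles), with the number compared in brackets, black bars for medians and dashed lines at 2-fold. The 7 genes have a median of -1.53 and the 19 folding and modification genes a median of -0.16.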

How the data were processed

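The authors deposited counts of UMIs per gene and barcode for each of the 2 libraries, without normalization, using Cell Ranger and the Rambouillet v1.0 sheep assembly. The file header names Cell Ranger 5.0.0 and the labels 3.1.0. No column was left unused for want of a sample (0).

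Kept cells had at least 200 genes and under 10% mitochondrial UMIs. A gate marker counted in a cell when it had a UMI and its level was at least 2 times its mean over both libraries. Markers found in over 40% of the kept cells of a library counted together as at most 1. Cells passing several gates (245 Ujumqin and 334 Hulunbuir) were left out, and this stood in for a doublet caller. Levels are summed UMIs per 1000000 UMIs (CPM), folds are ratios of such sums, with a floor of 3 counts at 0, for genes of at least 20 UMIs in the compared groups together. The 7 genes and the lists were chosen with earlier results of these data known, and the marker rule was set after marker values were seen. Matrix genes are named when at least 100 CPM in either mesenchyme, and the 3 genes most like each member by r. With 1 library per breed no test was run. The software was scipy 1.17.1, numpy 2.4.6, pandas 2.3.3 and matplotlib 3.10.9 under Python 3.11.15. On simulated data, 191 of 200 genes with a 4-fold change between the mesenchyme gates were recovered, with 123 false calls at 2-fold among 10384 genes, and of 100 cells drawn from Ujumqin and from Hulunbuir mesenchyme 73 and 88 returned to that gate with 0 in another. Alternatives were another gene minimum, total, averaging, number of markers, treatment of cells in several gates, UMI minimum and thinning depth. Gates with fewer markers, markers scaled per library, a depth range, the allantois sub-gate and groups without the 5 highest cells of each gene were added after seeing the data. No sequence was read, as no genome of this build was used here.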

Additional observations from a re-analysis of the deposited data

Results flagged for a closer look

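Several of the 7 genes moved in opposite directions under the same contrast, each past its counting interval. With 1 library per breed none of these differences was tested. POSTN differed between Hulunbuir and Ujumqin sheep by -2.11 on the log2 scale in the allantois sub-gate and by 1.13 in the limb and body-wall sub-gate. POSTN kept both directions without the 5 highest cells of each sub-gate, but fell short of 2-fold in limb and body wall. It differed by 0.91 in epithelium, 0.82 without the 5 highest cells of each group, and by 2.09 in the cardiomyocyte gate, against -0.55 in mesenchyme. All POSTN UMIs of both cardiomyocyte gates lay in at most 5 cells. Mesenchyme over neural cells was -1.55 for POSTN in Ujumqin and 0.83 in Hulunbuir sheep, with all 43 Ujumqin neural UMIs in 5 cells. COL1A2 differed by 3.55 in intermediate mesoderm and coelomic lining, from 7 Ujumqin and 135 Hulunbuir UMIs, against -1.53 in mesenchyme. DCN differed by 1.53 in paraxial mesoderm, from 7 and 86 UMIs, of which 62 of the 86 lay in 5 cells, against -1.37 in mesenchyme. It differed by 0.69 in the cardiomyocyte gate, from 48 and 103 UMIs, of which 46 and 102 lay in 5 cells, and without these it turned to -2.06. LUM differed by 0.58 in epithelium, from 87 and 184 UMIs, and by 0.80 without the 5 highest cells, against -1.61 in mesenchyme.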

How the results depend on the processing

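No paired analysis was possible because each breed has 1 library, and for the same reason no replicate could be left out. In 42 of 47 comparisons of a count or a median share with its alternative the value stayed within 1.5 times (counts) or within its interval (shares). Of the comparisons for single genes and the remaining counts, 169 stayed within the narrow counting interval or that limit, 118 moved past it and 2 reversed. The number of genes at least 2-fold higher in mesenchyme than in epithelium was 6 in each library under every alternative run. The number at least 2-fold different between the breeds in mesenchyme was 5 with markers scaled to each library's own mean, where COL5A1 fell short at -0.96, and 7 in cells of 10000 to 40000 UMIs and in the allantois sub-gate, where POSTN was added. The 21 matrix list genes at least 2-fold different became 12 with at least 100 UMIs required, since fewer were compared, and 13 in the allantois sub-gate, where the cause was not tested. The median share of mesenchyme cells with a UMI after thinning, 63.7% in Ujumqin and 27.0% in Hulunbuir sheep, became 83.4% and 43.0% at 2000 UMIs per cell, and 29.1% in Hulunbuir sheep with 1 marker more. Over all alternatives the difference between the breeds in mesenchyme ran from -1.65 to -1.35 for COL1A1, from -1.89 to -1.66 for COL3A1 and from -2.11 to -0.05 for POSTN. With 1 marker fewer, mesenchyme over epithelium fell to 1.95 for COL1A1 and 2.21 for LUM in Hulunbuir sheep. The value that reversed was POSTN in Ujumqin mesenchyme over epithelium, 0.87 with the mean of single cells and 0.76 without the 5 highest cells of each group.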
